A study of Mus musculus with 13 samples.

Results

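The junctions described here lie on mouse chromosome 12, the chromosome that carries the immunoglobulin heavy chain (IgH) locus, but away from its 2 designed breaks and from its labelled switch regions. They were found by high-throughput genome-wide translocation sequencing (HTGTS), which recovers the DNA, called the prey, that has joined to one fixed break, called the bait. A line of the IgH tables was kept if its prey lay on chromosome 12, outside positions 114557038 to 114587038 around the bait and 114654493 to 114674493 around the partner break (mm9), and carried none of the labels Sg3, Sg2b, Sg2a, Se or Sa. The members were thus chosen by their measured position and label. This left 211 of 6878 junctions of the IgH libraries, of which B cells gave 110 and T cells 101, of 16455 in the whole series. The excluded stretches were set around the peaks of these same libraries and the excluded labels were those of known switch regions, so the number of junctions kept is a description and was not tested.

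Activated splenic B cells (anti-CD40 and IL-4) and activated splenic T cells (ConcanavalinA and IL-2) both had the genotype IgH2-28xI, with sites for the nuclease I-SceI at both breaks, and each cell type gave 3 libraries, numbered 19, 21 and 23. Neither the age of the mice nor the way I-SceI was supplied is stated in what was used here. Libraries of B cells held 483 to 1115 junctions and those of T cells 387 to 2707. Replicates 19 and 21 of both cell types shared one sequencing run and replicates 23 another, per the read names. As a reference for chromosome 12 without a bait on it, 3 libraries of activated B cells with genotype c-myc25-2xI and 4 libraries of SV40-transformed tail fibroblasts with c-myc25xI and RosaI-SceI-GR were read over the same stretches. In these the bait is on chromosome 15. Whether replicates are separate mice is not stated in the labels, so p-values measure only the spread between these libraries, which may be technical.

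A broken DNA end is usually rejoined close by, and 2 ends of one chromosome that meet over a longer distance can join as a deletion, an inversion or a circle. In IgH of the mouse the constant region genes lie at lower coordinates and the variable gene segments at higher coordinates of chromosome 12. In activated B cells the enzyme AID starts breaks in the switch regions in front of the constant genes. Earlier, in developing lymphocytes, the RAG nuclease cuts at variable, diversity and joining segments, which are then joined. The bait read ran toward higher coordinates, as 3018 of 3189 junctions at or above the bait peak within its window lay on the + strand. If a junction lies on the same copy of the chromosome, a + strand prey above the bait has therefore lost the DNA between, and a − strand prey has it turned round. The tables do not tell which copy a prey came from.

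The sequences below are shown because the same junction occurred in 2 libraries (the first 3) or because they carry the leading gene labels Ppp2r5c and Ptprn2 (the next 8). The last 5 are, with 1 per read start, the B-cell junctions on the + strand at 1 to 2 Mb above the partner peak, a range in which T cells had none. Each is the deposited mm9 reference sequence from the junction into the prey, read 5′ to 3′ on the strand of the prey, up to 50 bases or the first gap in the alignment. Capitals mark bases at the junction that the bait has too, and where there are none the join was blunt, had inserted bases or was not classified.
B cells 21 and T cells 21, chr12:114555247-114555274, + strand: gcattattcctgtactgttttatttttt
T cells 19 and T cells 21, chr12:114597095-114597144, + strand: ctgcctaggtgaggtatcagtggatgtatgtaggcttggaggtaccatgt
T cells 19 and T cells 21, chr12:114654269-114654308, + strand: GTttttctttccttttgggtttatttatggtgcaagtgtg
Ppp2r5c, B cells 23, chr12:111714623-111714672, − strand: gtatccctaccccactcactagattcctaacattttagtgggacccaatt
Ppp2r5c, T cells 19, chr12:111737328-111737377, − strand: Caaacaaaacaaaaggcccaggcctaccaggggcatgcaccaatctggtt
Ppp2r5c, B cells 19, chr12:111774291-111774340, − strand: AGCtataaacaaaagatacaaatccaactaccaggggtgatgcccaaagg
Ppp2r5c, T cells 21, chr12:111778672-111778721, − strand: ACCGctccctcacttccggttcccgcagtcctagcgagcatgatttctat
Ptprn2, T cells 21, chr12:118023540-118023558, − strand: tttattaaacttgaattct
Ptprn2, B cells 21, chr12:118042204-118042253, + strand: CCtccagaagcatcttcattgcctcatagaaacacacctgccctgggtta
Ptprn2, B cells 19, chr12:118133532-118133581, − strand: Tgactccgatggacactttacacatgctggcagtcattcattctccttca
Ptprn2, B cells 19, chr12:118138536-118138585, − strand: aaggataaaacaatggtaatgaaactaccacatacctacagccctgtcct
Above the partner, B cells 21, chr12:115674609-115674658, + strand: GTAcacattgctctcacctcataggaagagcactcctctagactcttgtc
Above the partner, B cells 19, chr12:115751887-115751936, + strand: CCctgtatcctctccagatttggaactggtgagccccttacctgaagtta
Above the partner, B cells 19, chr12:116019619-116019668, + strand: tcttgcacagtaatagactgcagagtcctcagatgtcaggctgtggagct
Above the partner, B cells 21, chr12:116201964-116202009, + strand: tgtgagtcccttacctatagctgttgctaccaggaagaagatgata
Above the partner, B cells 21, chr12:116434508-116434557, + strand: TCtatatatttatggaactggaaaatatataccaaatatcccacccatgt

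The 3 junctions found in 2 libraries shared position, strand, far end of the prey and start of the prey on the read. After the library tag the paired reads had 235 and 108 bases without a difference for the T-cell pairs, and 366 bases with 1 differing base for the pair from B cells 21 and T cells 21. All 3 pairs lay within one sequencing run, so these libraries are not fully independent there. Within single libraries a further 11 junctions had a read start within 3 bp of another's on the same strand. This start is projected, as the place the read after its tag would begin if the prey alignment ran back to it, and is not a mapped base. The starts were at the same base in 10 pairs and 1 bp apart in 1 pair, although the positions were 2 to 34 bp apart. Of these 11 junctions, 7 were from B cells and 4 from T cells, and no junction repeated both position and strand. How they arose was not tested, and values with 1 junction per read start, or without junctions found in 2 libraries, are given where they change a result.

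The stretches held a few percent of each IgH library. B cells had 46 of 933 junctions there in replicate 19, or 4.93%, 49 of 1115 or 4.39% in replicate 21, and 15 of 483 or 3.11% in replicate 23. T cells had 21 of 1253 or 1.68%, 64 of 2707 or 2.36%, and 16 of 387 or 4.13%. The means were 4.14% ± 0.938 in B cells and 2.72% ± 1.27 in T cells (SD, n = 3 each), and the libraries overlapped. With the bait on chromosome 15, the same stretches held 0.274%, 0.877% and 0.456% of the c-myc B-cell libraries and 0.161% to 1.43% of the c-myc fibroblast libraries.

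**Figure D1:**
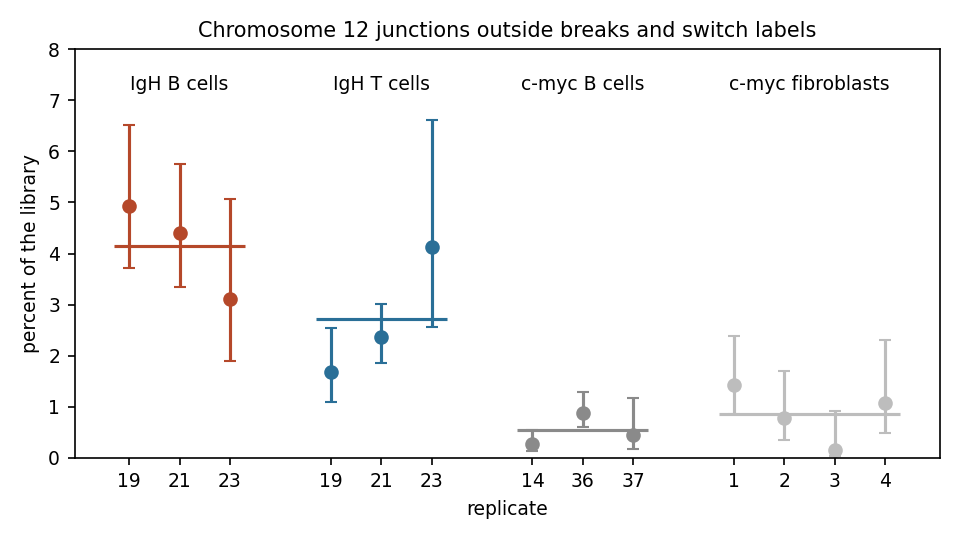
Percent of each library's junctions that lie on chromosome 12 outside the breaks and switch labels, by replicate, with 95% Wilson intervals that cover counting error only and horizontal lines for group means. Every IgH library, from 1.68% to 4.93%, sits above every c-myc library, whose highest value is 1.43%.

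B cells with the bait at IgH had more junctions on these stretches than B cells with the bait at c-myc. The shares were 4.14% ± 0.938 with the IgH bait and 0.536% ± 0.309 with the c-myc bait (SD, n = 3 each), a difference of 3.61 points and 7.74-fold. No libraries overlapped. The stretches were set on the IgH libraries themselves, so these shares are a description and no test is given. Locus, cassette and sequencing run changed together here and cannot be told apart.

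Pooled over libraries, both IgH groups stood above both c-myc groups out to 10 Mb. Farther along the chromosome the libraries of all groups overlapped. More than 10 Mb from the nearer break, chromosome 12 held 0.536%, 0.717% and 0.621% of the IgH B-cell libraries and 0.0798%, 0.222% and 0.775% of the IgH T-cell libraries. The c-myc B-cell libraries held 0.171%, 0.807% and 0.342% there, and the fibroblasts 0.161% to 1.33%, so that no group was separate. The stretch between both breaks held 23 junctions of IgH B cells and 38 of IgH T cells but none with the bait at c-myc, where 0 of 6646 B-cell junctions allow a share of up to 0.0451% and 0 of 2931 fibroblast junctions a share of up to 0.102%. Flanks within 1 Mb held 39 and 41 junctions in IgH B and T cells, and 3 and 0 in c-myc B cells and fibroblasts. Flanks from 1 to 10 Mb held 32 of 2531 and 12 of 4347 junctions in IgH B and T cells, and 3 of 6646 and 3 of 2931 in c-myc B cells and fibroblasts. Per library, however, T cells 19 and 21 lay within the range of the c-myc fibroblast libraries from 1 to 10 Mb. These zones were compared after their values were seen and were not tested.

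Between the breaks lay a larger part of these junctions in each T-cell library than in each B-cell library as deposited, a difference that did not pass correction and that overlapped without junctions found in 2 libraries. This stretch of 67.5 kb held 12 of 46, 8 of 49 and 3 of 15 junctions in B cells 19, 21 and 23, or 26.1%, 16.3% and 20%. In T cells it held 6 of 21, 26 of 64 and 6 of 16, or 28.6%, 40.6% and 37.5%. The libraries numbered 19 were nearest to each other, with B minus T at -2.48 points. The means were 20.8% ± 4.93 in B cells and 35.6% ± 6.26 in T cells (SD, n = 3 each), a difference of -14.8 points (two-sided exact permutation test, p = 0.1 and adjusted p = 0.786 over 11 tests, where 0.1 is the lowest a 3 against 3 design can give). It was -13.4 points within the run of replicates 19 and 21 and -17.5 points within that of replicate 23. With 20 kb left out on either side of each peak the libraries overlapped and the difference was -4.42 points (p = 0.7 by the same exact test). Without junctions found in 2 libraries it was -11.7 points (p = 0.2 by the same exact test), since T cells 19 then had 4 of 19, or 21.1%, which is below B cells 19. Of all junctions in a library the stretch held 12 of 933, 8 of 1115 and 3 of 483 in B cells. T cells had 6 of 1253, 26 of 2707 and 6 of 387, and these shares overlapped. From this stretch the rule left out 55 B-cell and 1 T-cell junctions labelled Sg3. Below the bait it left out 55 and 3 labelled Se, 5 and 2 labelled Sg2b, and 1 B-cell junction labelled Sg2a. Their part in the difference was not tested.

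**Figure D2:**
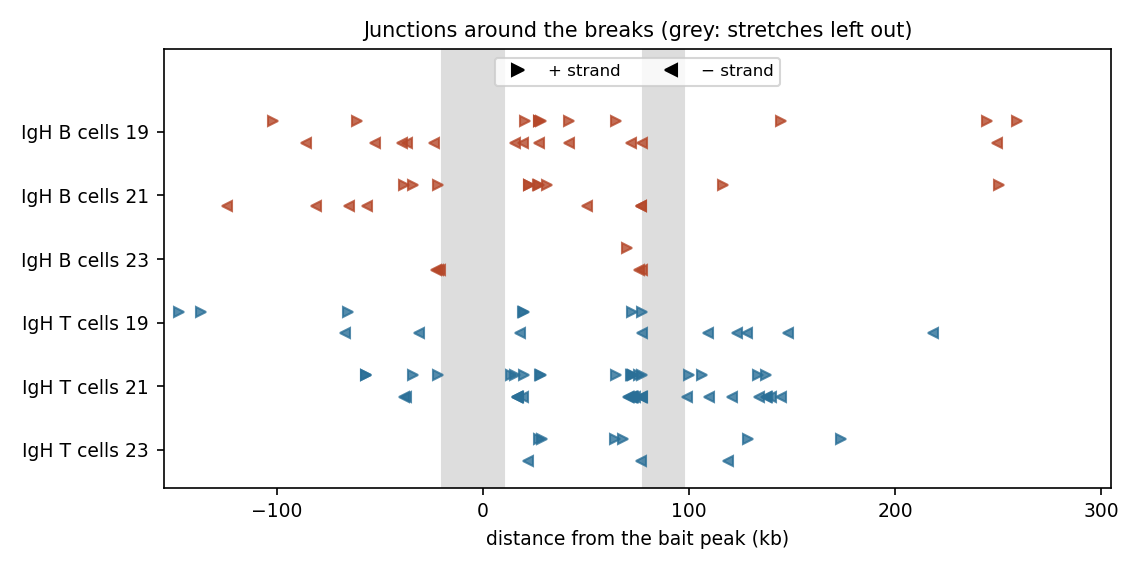
Junctions within 150 kb below and 300 kb above the bait peak, one row per library, with right-pointing marks for the + strand and left-pointing marks for the − strand. Grey bands are the stretches left out around the bait and the partner break; the middle of the stretch between them is nearly empty, and T-cell junctions cluster just above the partner band.

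The junctions between the breaks gathered near their 2 ends. Up to 32 kb above the bait peak lay 12 of the 23 B-cell and 16 of the 38 T-cell junctions, and more than 62 kb above it lay 8 and 22. The middle held 3 in B cells, 2 of them in replicate 19, and 0 of 38 in T cells. The widest gaps without any junction ran from 114627643 to 114641290, or 13.6 kb, and from 114608231 to 114618558, or 10.3 kb. These limits were chosen after the positions were seen. In windows of 10 kb with at least 4 junctions, those starting at 114590001, 114600001, 114640001 and 114650001 held 17, 11, 16 and 14 junctions. B cells gave 5, 7, 3 and 5 of them and T cells 12, 4, 13 and 9. The rule left out 55 junctions of B cells and 1 of T cells labelled S gamma 3 (Sg3) from 114599736 to 114603741, across the border of the first pair of windows. Above them, in the window from 114600001, 10 of the 11 remaining junctions lay on the + strand. The window from 114650001 is cut short by the partner window, and 3 of its 14 junctions lay on the + strand.

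Per length, the stretch between the breaks held more junctions than the flanks next to the windows in 5 of 6 libraries as deposited, and in 4 of 6 without junctions found in 2 libraries. It was set against 33.7 kb below the bait window plus 33.7 kb above the partner window. The distances were unequal, as the lower flank began 20 kb from the bait peak. The upper flank and both ends of the stretch began 10 kb from a peak. The counts were 12 between against 4 in the flanks, 8 against 4 and 3 against 3 in B cells 19, 21 and 23, and 6 against 4, 26 against 9 and 6 against 2 in T cells. B cells 23 had equal counts, and the 5 other libraries had more between the breaks. The mean difference was 0.0865 junctions per kb ± 0.0901 (SD, n = 6), with exact sign-flip permutation p = 0.0625 and adjusted p = 0.188 over 3 tests. Without junctions found in 2 libraries T cells 19 had 4 against 4, and the mean difference was 0.0815 per kb (exact sign-flip permutation p = 0.125, adjusted p = 0.375). Without T cells 21 it was 0.0534 per kb, and with 20 kb left out on either side of each peak 0.00351 per kb. Nearest to the edges of the excluded stretches, junctions kept lay 90 to 3417 bp outside an edge (at 114654403 and 114590455) and junctions left out lay 200 to 3955 bp inside one.

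Below the bait, on the side of the constant genes and the centromere, both cell types had junctions over most of the chromosome. This side held 23, 27 and 11 junctions in B cells 19, 21 and 23, and 10, 25 and 7 in T cells. Their median distance to the bait peak was 2372, 2674 and 423 kb in B cells and 150, 1305 and 6234 kb in T cells, in the same order, so that the libraries overlapped widely. The farthest lay 97.5 Mb away in B cells and 91.7 Mb away in T cells. Density was lower farther out, though not at every step. Per Mb and per 1000 junctions of the group, B cells had 119 junctions at 20 to 50 kb, 10.5 at 200 to 500 kb and 1.19 at 2 to 5 Mb, from 9, 8 and 9 junctions. T cells had 38.3, 1.53 and 0.383 in these bands, from 5, 2 and 5 junctions. Against this fall, B cells had only 0.395 at 1 to 2 Mb, and T cells had 2.76 at 500 to 1000 kb. The nearest bands lack the junctions labelled Se, Sg2b and Sg2a, which the rule left out. In windows of 10 kb on this side the highest count was 6, from 114550001, of which 5 were from B cells.

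Above the partner break, on the side of the joining, diversity and variable segments, T-cell junctions lay near the break in mm9 coordinates. Most B-cell junctions lay far from it in these coordinates. Where segments had already been joined, the distance on the cell's own chromosome can be shorter than in mm9, which was not tested. B cells 19 and 21 had 11 and 14 junctions there, at a median of 1186 and 1099 kb from the partner peak, and B cells 23 had 1, at 5177 kb. T cells 19, 21 and 23 had 5, 13 and 3 junctions, at medians of 40.8, 46.7 and 41.0 kb. Within 100 kb of the partner peak lay 1 of 11, 1 of 14 and 0 of 1 in B cells, and 4 of 5, 12 of 13 and 3 of 3 in T cells. The medians of all B-cell libraries were above those of all T-cell libraries, although 1 T-cell junction, in Ptprn2, lay 3359 kb away. This limit and side were singled out after the values were seen, so no test is given.

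**Figure D3:**
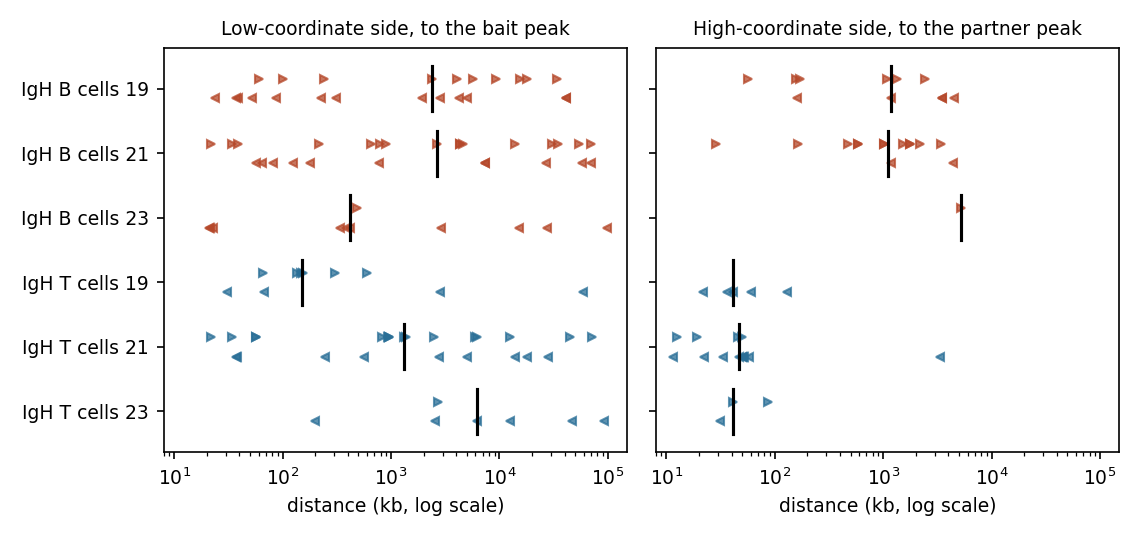
The mm9 distance of each junction outside the breaks to the nearer break peak (log scale), below the bait (left) and above the partner (right). Right-pointing marks are for the + strand, left-pointing marks for the − strand and black bars for the median of a library. Below the bait the libraries overlap. Above the partner the T-cell medians are 40.8 to 46.7 kb and the B-cell medians 1099 to 5177 kb. There B cells 23 has 1 junction, at 5177 kb, and T cells 23 has 3.

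Most of the junctions on this side lay below Ptprn2, in an interval that holds the Ighv genes and also other genes and both breaks. The gene order thus does not show which of them lay among the Ighv genes. In RefSeq's gene order (GRCm38, used for order only) 183 Ighv genes lie between Tmem121 and Ptprn2, and 0 elsewhere on chromosome 12. Between the partner window and the lowest junction labelled Ptprn2 lay 20 of the 26 B-cell and 20 of the 21 T-cell junctions of this side, with no gene label. Of these, 18 in B cells and 1 in T cells were more than 100 kb from the partner peak. The 18 came from B cells 19 (7) and B cells 21 (11), reached from 0.157 to 2.44 Mb, and 15 of them lay on the + strand. With 1 junction per read start they were 16, of which 13 lay on the + strand. In T cells 19 of the 20 lay within 100 kb, and 6 of those on the + strand. A window of 10 kb from 114710001 held 6 junctions, all from T cells 21.

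Over both flanks the distances did not separate the cell types. Within 1 Mb of the nearer break lay 41.2%, 43.9% and 58.3% of the flank junctions of B cells 19, 21 and 23, and 86.7%, 63.2% and 40% of those of T cells. The difference of -15.5 points had exact permutation p = 0.4 and adjusted p = 0.786. It was -32.4 points within the run of replicates 19 and 21 and 18.3 points within that of replicate 23, and -3.77 without T cells 19. The mean log10 distance in bp was 6.02 ± 0.0982 in B cells and 5.67 ± 0.472 in T cells (SD, n = 3 each; exact permutation p = 0.4, adjusted p = 0.786). That difference of 0.349 was 0.642 in the run of replicates 19 and 21 and -0.237 in the other, 0.130 without T cells 19, 0.599 without T cells 23, and 0.211 with distances taken to the bait. The lengths of the 2 sides were not corrected for. More than 10 Mb from the nearer break, 16 B-cell and 10 T-cell junctions lay below the bait and 0 above the partner. Of flank junctions, the side below the bait held 75.1% ± 14.4 in B cells, and in T cells 67.5% ± 2.22 (SD, n = 3 each; exact permutation p = 0.6, adjusted p = 0.825). The difference of 7.57 points was -0.735 without B cells 23, 0.522 within the run of replicates 19 and 21 and 21.7 within the other. Within 1 Mb, that side held 10 of 14, 13 of 18 and 7 of 7 in B cells, and 8 of 13, 12 of 24 and 1 of 4 in T cells. This was 13.4 points ± 25.1 above an even split over the 6 libraries (exact sign-flip permutation p = 0.3125, adjusted p = 0.469), 6.04 points without B cells 23 and 21.04 without T cells 23.

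On strand, the junctions as a whole were near even, at 58 + strand junctions among the 110 of B cells and 48 among the 101 of T cells. Per library this was 22 of 46, 33 of 49 and 3 of 15 in B cells, and 10 of 21, 31 of 64 and 7 of 16 in T cells. The difference in means, -1.54 points, had exact permutation p = 0.9. It was 9.56 points within the run of replicates 19 and 21 and -23.75 within the other, and 10.98 without B cells 23.

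Above the partner break the + strand was more common in B cells 19 and 21 than in T cells 19 and 21, on few junctions and without passing a test. B cells 19, 21 and 23 had 6 of 11, 12 of 14 and 1 of 1 there on the + strand, and T cells 0 of 5, 4 of 13 and 2 of 3. Among libraries with at least 5 junctions the shares were 70.1% ± 22.0 in B cells and 15.4% ± 21.8 in T cells (SD, n = 2 each), without overlap. The difference of 54.7 points could not pass a threshold of 0.05, since 2 libraries against 2 give an exact permutation p of 0.333 at the lowest, which it had (adjusted p = 0.786). All 4 libraries are from one run. T cells 23, with 3 junctions, lay at 66.7%, between B cells 19 and 21.

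Below the bait the + strand share was low in both libraries numbered 23 and higher in the other 4. On the + strand lay 1 of 11 junctions of B cells 23 and 1 of 7 of T cells 23, or 9.09% and 14.3%. The other libraries had 10 of 23 and 16 of 27 in B cells, and 6 of 10 and 16 of 25 in T cells, or 43.5% to 64%. The B cell minus T cell difference was -8.82 points (exact permutation p = 0.5, adjusted p = 0.786), with -10.6 within the run of replicates 19 and 21 and -5.19 within that of replicate 23. It was 5.27 points without B cells 23, 0.133 without T cells 21 and -24.7 without T cells 23. Both replicates 23 were sequenced together and apart from the others, and had median read lengths of 183 and 184 bases against 214 to 257. The part of run or read length in this strand share was not tested. Between the breaks the + strand made up 6 of 12, 5 of 8 and 1 of 3 junctions in B cells and 4 of 6, 11 of 26 and 4 of 6 in T cells (difference -2.30 points with B cells 23 left out for having under 5 junctions; exact permutation p = 1).

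**Figure D4:**
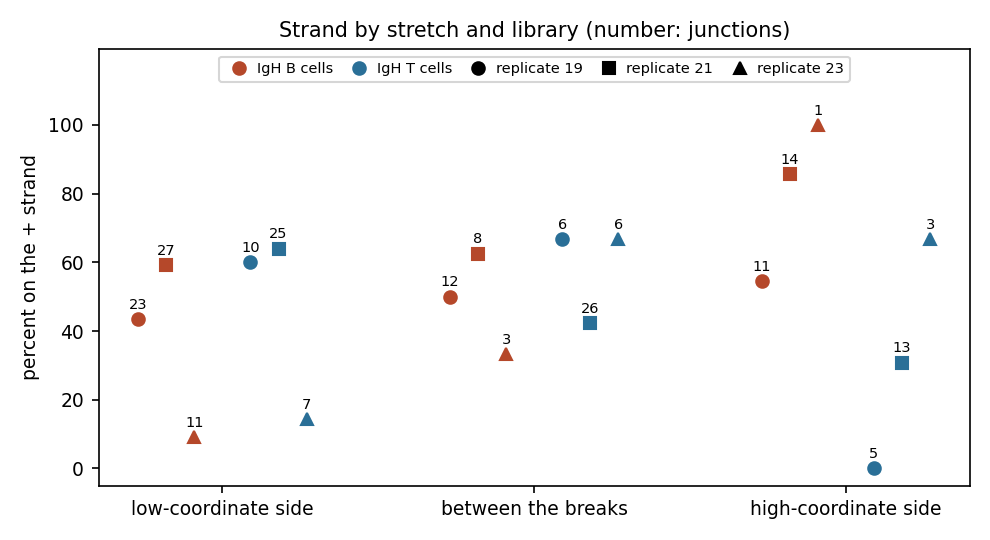
Percent of junctions on the + strand by stretch, with one mark per library (shape for the replicate number, colour for the cell type) and the number of junctions above it. Both replicates 23 are at 9.09% and 14.3% below the bait, where the other 4 libraries are at 43.5% to 64%; above the partner B cells 19 and 21 are above T cells 19 and 21.

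Comparing both flanks within a library, the + strand share below the bait minus that above the partner was -11.1, -26.5 and -90.9 points in B cells 19, 21 and 23, and 60, 33.2 and -52.4 points in T cells. The mean of -14.6 points over 6 libraries was smaller than its SD of 55.2 (exact sign-flip permutation p = 0.5625, adjusted p = 0.5625), and was 0.666 without B cells 23. Both replicates 23 rest on 1 and 3 junctions above the partner.

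Gene labels were carried by 42 of the 211 junctions, over 30 genes. All lay outside the breaks, 28 genes below the bait and 2 above the partner, and none between. From the highest Tmem121 label to the lowest Ptprn2 label, 129 members carried 0 gene labels. RefSeq's gene order has 265 genes between Tmem121 and Ptprn2, so a missing label there does not mean that no gene is present. The labelled share therefore depends on position. The labelled share was 23.9%, 20.4% and 33.3% in B cells 19, 21 and 23, and 23.8%, 10.9% and 25% in T cells. The means of 25.9% ± 6.68 in B cells and 19.9% ± 7.798 in T cells (SD, n = 3 each) differed by 5.97 points (exact permutation p = 0.5, adjusted p = 0.786), with 4.79 within the run of replicates 19 and 21 and 8.33 within the other. Without B cells 23 it was 2.24 points and without T cells 21 1.48 points. More than 100 kb below the bait, 22 of 46 B-cell and 15 of 33 T-cell junctions had a label, or 47.8% and 45.5%. On other chromosomes of the same libraries 53.5% and 56.25% did.

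Labels found in at least 2 libraries or on at least 3 junctions numbered 5. Ppp2r5c, which encodes a regulatory subunit of protein phosphatase 2A, had 4 junctions from 111714672 to 111778721, all on the − strand, in B cells 19 and 23 and T cells 19 and 21. Ptprn2, a receptor-type phosphatase family member of secretory vesicles, had 4 from 118023558 to 118138585, with 2 in B cells 19 and 1 each in B cells 21 and T cells 21, and 1 of the 4 on the + strand. Dync1h1, the heavy chain of cytoplasmic dynein, had 1 each in B cells 21 and T cells 23, both on the + strand, and Pacs2, a sorting protein, 1 each in B cells 19 and T cells 19. Mta1, a subunit of the NuRD chromatin complex, had 1 in B cells 19 and 1 in B cells 21. Each of the other 25 labels came from a single library, 22 of them with 1 junction.

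At the joins themselves, about as many classified junctions shared bases with the bait as did not. Microhomology, of at least 1 base, was found in 19 of 33, 19 of 42 and 6 of 11 classified junctions of B cells 19, 21 and 23, and in 10 of 18, 23 of 48 and 13 of 15 of T cells, with a median of 2 shared bases in each cell type and at most 8 and 9. The shares were 52.5% ± 6.43 in B cells and 63.4% ± 20.5 in T cells (SD, n = 3 each; exact permutation p = 0.5, adjusted p = 0.786). The difference of -10.9 points was -0.329 within the run of replicates 19 and 21, -32.1 within the other, and 0.717 without T cells 23. Inserted bases were found in 38.5% ± 3.75 in B cells and 32.3% ± 22.2 in T cells (SD, n = 3 each; exact permutation p = 1). That difference of 6.21 points was -5.53 and 29.7 within the 2 runs and -6.61 without T cells 23. Some pairs with a shared read start held 1 microhomology and 1 insertion, as at 114604061 and 114604084 in B cells 19. The class of such a join thus depends on where the prey alignment was begun. With 1 junction per read start the difference was 3.91 points for insertions and -9.10 points for microhomology. Blunt joins made up 8 of 86 classified B-cell and 4 of 81 classified T-cell junctions.

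Pooled over libraries, the letters of the switch motif were about as frequent at these junctions as on other chromosomes. The motif AGCT, which reads the same on both strands and is repeated in switch regions, occurred in the first 50 aligned prey bases of 22 of 96 B-cell and 18 of 87 T-cell junctions, or 22.9% and 20.7%. Over prey on other chromosomes of the same libraries it occurred in 22.2% in B cells and 22.97% in T cells. Among the switch-labelled junctions left out, 83 of 102 from B cells and 4 of 5 from T cells held it, or 81.4% and 80%. By library it was found in 0 of 13 junctions of B cells 23 and 1 of 13 of T cells 23, which share a run, and in 21.1% to 29.4% in the other 4; the part of the run was not tested. Between the breaks it was found in 6 of 21 B-cell and 9 of 33 T-cell junctions. Mean GC content of these 50 bases was 45.9% in B cells and 49.5% in T cells, with 57.4% and 55.6% in the switch-labelled prey. For prey on other chromosomes it was lower, at 43.0% in B cells and 44.6% in T cells, which was not tested. A motif match is a description of the letters and does not mark a site of AID. None of the 211 prey sequences held an I-SceI site.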

How the data were processed

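Genomic DNA was sonicated and amplified by adapter PCR for HTGTS, per the labels' protocols. In the tables the authors deposited, each read has a line with its prey position, strand and gene label on mm9, per the file headers and the submitters' processing notes. Aligner and filters: not given in the sources used here. Positions are as deposited; the coordinates of printed sequences run from the base after the lower deposited coordinate, since spans then equal sequence lengths.

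Each line counted as 1 junction. The members, lists and tests were chosen with earlier results of these data known. Distance was taken to the nearer break peak (bait 114577038, partner 114664493, each the most common deposited position plus 1). Libraries with under 5 junctions in a denominator gave a value but stayed out of the B against T test. B against T cells was tested on library values by exact permutation (two-sided, 11 tests), and contrasts inside a library by exact sign flips (3 tests), each family adjusted after Benjamini and Hochberg (Python 3.11.15, scipy 1.17.1). Wilson intervals (95 percent) and the 3-count limit for a 0 take in counting error alone. The bait was matched over its first 82 bases, allowing single changed, missing or extra bases, and joins whose bait ran beyond were not classified. The 10 kb windows named have at least 4 junctions, and gene labels are named if found in 2 libraries or on 3 junctions.

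Same-numbered B-cell and T-cell libraries deviated together in their profile over stretch and strand (correlations 0.522, 0.554 and 0.732 for 19, 21 and 23), so the numbers were taken to pair libraries. B cells 19 correlated more with T cells 21 (0.626), and the shared runs follow the same split.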

Additional observations from a re-analysis of the deposited data

How the results depend on the processing

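No test passed an adjusted p of 0.05, in the values reported or under any of the alternatives tried, and most of the designs could not. Among the recomputed comparisons 167 kept their direction and their side of the threshold, and 15 turned. Some of the 167 could not have turned. They include the plain shares of members in a library, which have no direction. They also include 1 junction per position and strand, which removed none of the members. With the replicate block, the + strand share between the breaks turned to 1.76 points, B cells minus T cells, on 2 pairs (exact sign-flip permutation p = 1), and the block changed no other direction and no call. The same share was 1.76 points with prey of at least 50 aligned bases and 4.17 points without junctions found in 2 libraries, an alternative that also turned the + strand share of all junctions to 0.912 points. The strand difference between both flanks was 13.9 points in the 4 libraries with at least 5 junctions on each side. These last alternatives, and 1 junction per read start, were chosen after seeing the data. The cause of these turns was not tested, apart from the fewer libraries or junctions used. Leaving out single libraries gave -10.4 to 3.95 points for the + strand share between the breaks, -12.7 to 10.98 for that of all junctions, -24.7 to 5.27 for that below the bait, -0.735 to 12.2 for the side below the bait, -29.5 to 0.666 for the difference between both flanks, -18.7 to 0.717 for microhomology and -6.61 to 12.97 for insertions. The excess on chromosome 12 with the IgH bait over the c-myc bait stayed at 3.21 to 4.13 points. With 1 to 27 junctions per stretch and library, wide differences in a share can lie within counting error.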

Other observations

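Inserted stretches of at least 10 bases between bait and prey numbered 14 in B cells and 11 in T cells. Of these, 4 in B cells and 1 in T cells held 10 or more bases of the I-SceI site, and 4 in each held 10 or more bases of the bait sequence without the site. Some of the inserted stretches came from pairs with a shared read start, such as 114604084 in B cells 19 and 114594033 in T cells 21.

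On the flanks the c-myc libraries had 37 junctions in B cells and 27 in fibroblasts over the same stretches of chromosome 12, of which 2 in each lay above the partner position of IgH.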
